A study of Mus musculus with 6 samples.

Results

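Immediate early genes are the first genes that a cell transcribes after a stimulus, and 10 of them were followed here in embryonic mouse kidney: Fos, Fosb, Jun, Junb, Egr1, Ier2, Atf3, Dusp1, Zfp36 and Btg2. They were chosen with earlier results of these data known, and were taken from the data by gene name. All 10 were found once each among the 21553 genes with values. The 6 libraries came from embryos at E13.5, 3 of them homozygous for a Fat4 mutation (Fat4-/-) and 3 wildtype (Fat4+/+), of a C57BL6/6 background after 6 backcrosses. Each library was made from total RNA of the 2 kidneys of 1 embryo, dissected largely free of ureter. All embryos came from 1 litter and were put on ice, and their kidneys were flash frozen in liquid nitrogen, so p-values measure the spread between littermates. The mutation is carried by every cell of the embryo, and which exons of Fat4 are affected is unknown here.

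Immediate early genes need no new protein to be switched on. Growth factors act through Erk kinases, which activate the ternary complex factors that sit with serum response factor on their promoters, and stress acts through other MAP kinases and through cAMP response element binding proteins. Their transcripts are short-lived, so their level follows recent signalling. Fos, Fosb, Jun, Junb and Atf3 encode leucine zipper proteins that pair to form AP-1 and related factors; Egr1 encodes a zinc finger transcription factor and Ier2 a small nuclear protein. Dusp1, Zfp36 and Btg2 encode brakes: a phosphatase that inactivates MAP kinases, a protein that binds AU-rich messages and sends them to decay, and an antiproliferative protein that recruits a deadenylase. In kidney several of them are induced by ischaemia and by handling or dissociation of the tissue, while in the embryo Ret and Fgf receptors signal through Erk.

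Levels are in cRPKM, reads scaled by gene length and library size with a correction by the authors that is not described, so the order of levels between genes rests on that scaling as deposited. Fat4 itself stood at 7.82, 7.20 and 7.49 cRPKM in mutant embryos 1, 2 and 3, against 16.74, 15.69 and 16.83 cRPKM in wildtype embryos 1, 2 and 3. Library sums of cRPKM ran from 473695 to 503223, the number of reads is unknown, and Pearson correlations between libraries lay between 0.991 and 0.996 over 15 pairs, taken across genes. Together Uty, Kdm5d, Ddx3y and Eif2s3y, which are Y-linked, gave 69.6, 0.080 and 0.150 cRPKM in mutant embryos 1, 2 and 3 and between 65.3 and 73.0 cRPKM in the wildtype embryos, so mutant embryos 2 and 3 differed in sex from the other 4. Genes that mark nephron progenitors (7 of 7 above 0 in every library), ureteric epithelium (8 of 8), stroma (6 of 6), endothelium (8 of 8) and macrophages (12 of 12 with values) were all detected.

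The promoters were searched for the sequence through which cAMP response element binding proteins and Atf factors act. Of those that hold it, 4 are printed. They are Fos (low in level, though above Fosb), Atf3 (higher in mutant kidneys), Btg2 (lower in mutant kidneys) and Dusp1 (with TGACGTCA and a separate TGACG). The differences of Atf3 and Btg2 did not pass the test across all genes given below. The windows run from 250 bases before to 50 bases after the RefSeq start site on GRCm38.p6, each 5′ to 3′ on the strand of the gene, and capitals mark the half-site TGACG on either strand, which within TGACGTCA overlaps itself on the opposite strand.
Fos promoter: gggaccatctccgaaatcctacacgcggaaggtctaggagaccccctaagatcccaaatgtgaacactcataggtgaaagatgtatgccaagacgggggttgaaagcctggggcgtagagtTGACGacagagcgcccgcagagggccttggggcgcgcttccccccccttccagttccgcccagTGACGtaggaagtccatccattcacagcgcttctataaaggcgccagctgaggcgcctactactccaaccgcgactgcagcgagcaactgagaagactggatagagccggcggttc
Atf3 promoter: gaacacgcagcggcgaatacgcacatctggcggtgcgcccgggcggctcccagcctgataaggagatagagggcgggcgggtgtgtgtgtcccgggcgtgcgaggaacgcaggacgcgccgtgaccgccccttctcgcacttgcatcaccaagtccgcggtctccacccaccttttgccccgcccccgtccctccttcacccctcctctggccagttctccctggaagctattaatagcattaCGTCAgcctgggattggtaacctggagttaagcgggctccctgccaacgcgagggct
Btg2 promoter: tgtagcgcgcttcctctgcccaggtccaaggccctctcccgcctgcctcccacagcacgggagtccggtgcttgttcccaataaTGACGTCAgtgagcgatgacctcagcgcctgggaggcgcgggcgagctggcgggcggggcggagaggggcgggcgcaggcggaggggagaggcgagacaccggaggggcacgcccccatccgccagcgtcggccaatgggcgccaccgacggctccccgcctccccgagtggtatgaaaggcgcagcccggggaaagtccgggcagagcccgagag
Dusp1 promoter: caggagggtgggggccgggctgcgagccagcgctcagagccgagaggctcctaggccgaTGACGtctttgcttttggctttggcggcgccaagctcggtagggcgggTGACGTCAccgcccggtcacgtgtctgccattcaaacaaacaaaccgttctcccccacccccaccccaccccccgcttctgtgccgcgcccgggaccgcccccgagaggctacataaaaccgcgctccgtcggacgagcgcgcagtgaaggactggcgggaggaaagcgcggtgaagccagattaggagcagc
The Fos window is chr12:85473640-85473939 on the plus strand. The other windows lie on the minus strand, Atf3 at chr1:191183284-191183583, Btg2 at chr1:134079106-134079405 and Dusp1 at chr17:26508423-26508722.

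Of the 10 genes 8 had a promoter in the table, and 6 of the 8 held TGACG on either strand (Fos, Fosb, Junb, Atf3, Dusp1 and Btg2), a site found in 20.8% of all 32851 promoters of that length. The full palindrome TGACGTCA stood in the windows of Dusp1 and Btg2, against 1.79% of all promoters. In Dusp1 it began 143 bases and in Btg2 166 bases before the start site, while in Fos the half-sites began 129 and 66 bases before it. The CArG box, to which serum response factor binds, was found in the Zfp36 window, starting 58 bases before the start site, and in 1.63% of all promoters. The AP-1 site TGANTCA was in none of the 8 windows and in 7.81% of all promoters. TATAAA occurred in the Fos window, starting 33 bases before the start site, and in the Junb window, starting at the start site itself. It was in 13.6% of all promoters. CCAAT occurred in the windows of Jun, Junb, Atf3 and Btg2 and in 37.4% of all promoters. These are matches of letters, searched on both strands, and a missing match says only that the letters are not in the window. No window was available for Egr1 and Ier2, so neither was searched for any of these sites.

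Fosb and Fos were barely expressed in these kidneys, in either genotype. Fosb had 0.060, 0.060 and 0.070 cRPKM in the mutant embryos, against 0.060, 0.040 and 0.070 cRPKM in the wildtype embryos. Fos, which binds DNA as a dimer with Jun proteins, had 0.59, 0.73 and 0.65 cRPKM in the mutant embryos, against 0.54, 0.70 and 0.56 cRPKM in the wildtype embryos. Both genes thus lay under 1 cRPKM in every library, with groups that overlapped. Over the 6 libraries the mean of Fos exceeded that of 39.9% and the mean of Fosb that of 26.2% of the genes with values.

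At the other end Ier2 had the highest mean of the 10 genes, 29.5 cRPKM over the 6 libraries, followed by Jun at 17.8, Egr1 at 12.0, Btg2 at 9.23, Zfp36 at 6.05, Dusp1 at 5.58, Junb at 2.02, Atf3 at 1.79, Fos at 0.628 and Fosb at 0.060 cRPKM. Ier2 exceeded 85.9% and Jun 76.4% of the genes with values, and the median over the genes tested below was 13.6 cRPKM. Most neighbours in this order were separated, since the lowest library of the one lay above the highest library of the next. The exceptions were Egr1 and Btg2, Zfp36 and Dusp1, and Junb and Atf3, whose ranges over the 6 libraries overlapped. Among the leucine zipper genes Jun therefore led by a wide margin, with its lowest library at 17.0 cRPKM against a highest of 2.17 for Junb, 2.09 for Atf3 and 0.73 for Fos.

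**Figure D1:**
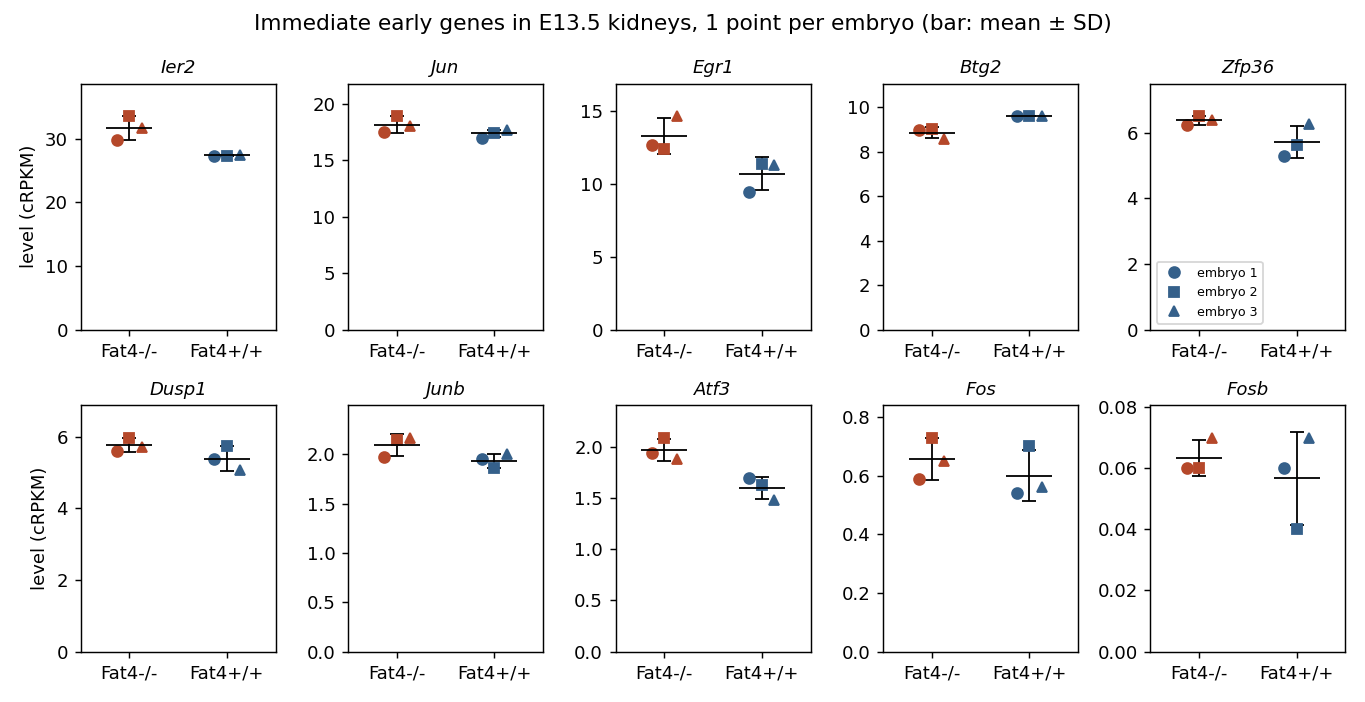
Level in cRPKM (vertical axis, from 0, its own scale in each panel) of the 10 immediate early genes in 3 Fat4-/- and 3 Fat4+/+ embryos, with 1 point per embryo and the mean ± SD as bars. Mutant and wildtype points do not overlap for Ier2, Egr1 and Atf3, which are higher in mutants, and for Btg2, which is lower. Those of the other 6 genes overlap. Of all tested genes, 7.23% are separated with mutants higher and 11.0% with mutants lower.

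The comparison of genotypes asks whether loss of Fat4, a large cadherin that signals from the kidney stroma, goes with a different level of these genes. None of them passed the test across all genes. Egr1, Ier2 and Atf3 were higher and Btg2 was lower in each mutant embryo than in any wildtype embryo, by 7.81% (Btg2) to 23.7% (Egr1) of the wildtype mean. The other 6 genes overlapped between genotypes. Over all tested genes, 7.23% were separated in this way with mutants higher and 11.0% with mutants lower. The 1 lower gene among the 8 tested is near the latter share.

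Egr1, the zinc finger factor, had 12.72, 12.42 and 14.70 cRPKM in the mutant embryos, against 9.45, 11.41 and 11.34 cRPKM in the wildtype embryos. Wildtype embryo 1 was the lowest and mutant embryo 3 the highest of the 6, and the groups did not overlap. Its mean was 13.3 ± 1.24 cRPKM in mutant and 10.7 ± 1.11 cRPKM in wildtype kidneys (SD, n = 3 each). On the log2 scale the difference was 0.28 (SE 0.0833), with an adjusted p = 0.177 in limma across all genes and an unadjusted p of 0.00863. All fold changes here are differences of log2(cRPKM + 1), mutant minus wildtype, a scale that understates the change of low genes.

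Ier2, the small nuclear protein gene, lies on chromosome 8 (84661331 to 84662852 on GRCm38, in GENCODE M21, whereas the levels refer to mm9). It had 29.81, 33.58 and 31.68 cRPKM in the mutant embryos, against 27.34, 27.26 and 27.46 cRPKM in the wildtype embryos. The wildtype embryos were nearly equal, and each mutant embryo lay above them. Its mean was 31.7 ± 1.89 cRPKM in mutant and 27.4 ± 0.101 cRPKM in wildtype kidneys (SD, n = 3 each). The log2 fold change was 0.20 (SE 0.0476), with the lowest adjusted p of the 8 genes tested, 0.0885 in limma.

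Atf3, a leucine zipper gene induced by many stresses, lies on chromosome 1 (191170296 to 191218039). It had 1.94, 2.09 and 1.88 cRPKM in the mutant embryos, against 1.69, 1.63 and 1.48 cRPKM in the wildtype embryos. Its groups did not overlap, with means of 1.97 ± 0.108 cRPKM in mutant and 1.60 ± 0.108 cRPKM in wildtype kidneys (SD, n = 3 each), a ratio of 1.23. The log2 fold change was 0.19 (SE 0.0619, adjusted p = 0.227 in limma).

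Btg2, also on chromosome 1 (134075170 to 134079120), was the 1 member of the 8 with a lower mutant mean. It had 8.98, 9.02 and 8.57 cRPKM in the mutant embryos, against 9.59, 9.62 and 9.61 cRPKM in the wildtype embryos. The wildtype embryos again lay within a narrow band, above every mutant embryo, a separation seen for 11.0% of all tested genes. The mean was 8.86 ± 0.249 cRPKM in mutant and 9.61 ± 0.0153 cRPKM in wildtype kidneys (SD, n = 3 each). The difference on the log2 scale was -0.11 (SE 0.0408), with an adjusted p = 0.313 in limma.

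The other brakes overlapped between genotypes. Zfp36 had 6.24, 6.51 and 6.37 cRPKM in the mutant embryos, against 5.28, 5.63 and 6.25 cRPKM in the wildtype embryos. Wildtype embryo 3 lay just inside the mutant range, and the log2 fold change was 0.14 (SE 0.0596, adjusted p = 0.385 in limma). Dusp1 had 5.61, 5.98 and 5.71 cRPKM in the mutant embryos, against 5.37, 5.74 and 5.07 cRPKM in the wildtype embryos. Here wildtype embryo 2 lay among the mutant embryos (log2 fold change 0.083, SE 0.0540, adjusted p = 0.589 in limma).

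For the other Jun and Fos genes the groups overlapped too. Jun had 17.52, 18.94 and 18.04 cRPKM in the mutant embryos, against 17.00, 17.43 and 17.69 cRPKM in the wildtype embryos. Junb had 1.97, 2.14 and 2.17 cRPKM in the mutant embryos, against 1.95, 1.86 and 2.00 cRPKM in the wildtype embryos. For both genes mutant embryo 1 lay within the wildtype range. The log2 fold change was 0.060 for Jun (95% interval -0.037 to 0.16, adjusted p = 0.622 in limma) and 0.075 for Junb (95% interval -0.057 to 0.21, adjusted p = 0.654). Fos and Fosb were under the minimum mean of 1 cRPKM for the test. Without that minimum they had log2 fold changes of 0.051 and 0.0092 (adjusted p = 0.754 and 0.869 in limma).

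**Figure D2:**
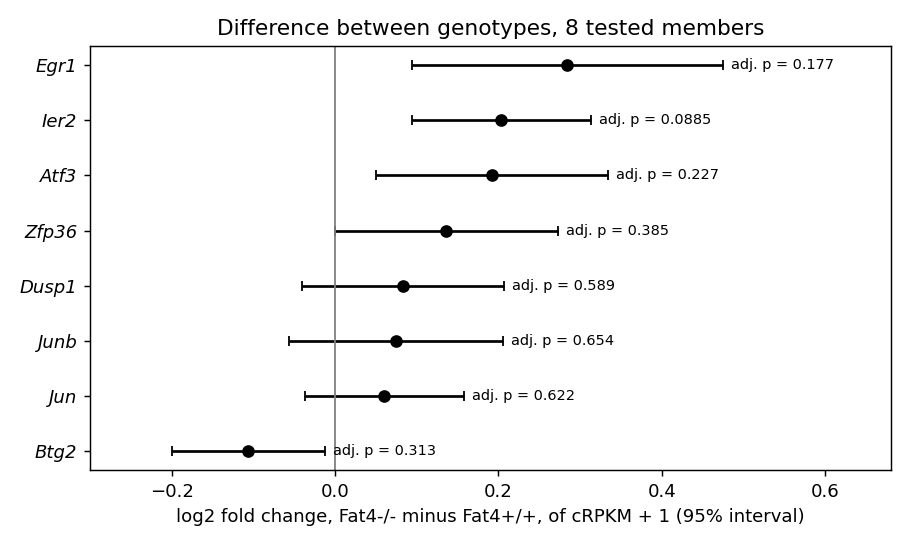
Log2 fold change of cRPKM + 1, Fat4-/- minus Fat4+/+ (horizontal axis), with its 95% interval for the 8 tested immediate early genes (vertical axis), and the adjusted p beside each. Values run from -0.11 for Btg2 to 0.28 for Egr1, and no adjusted p is under 0.05.

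In all, 0 of the 8 tested genes were called at an adjusted p under 0.05 in limma in either direction, where 1.43% of all 12315 tested genes were called (0.552% higher and 0.877% lower). At an unadjusted p under 0.05 there were 3 higher (Egr1, Ier2 and Atf3) and 1 lower (Btg2), against 5.08% and 7.97% of all tested genes. Groups that did not overlap were found for the same 4 genes, against 7.23% of all tested genes higher and 11.0% lower. A log2 fold change above 0 was seen for 7 of the 8, against 43.2% of all tested genes. The median log2 fold change was 0.11 over the 8 and -0.012 over all tested genes. The genes were chosen with earlier results of these data known, so these counts are a description, and no test of the set was run. With 3 embryos against 3, an exact permutation test of 1 gene cannot go below p = 0.1. In these bulk libraries, fewer cells that express a gene and less of its RNA per cell cannot be told apart.

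The mutant libraries were not equally high. The mean deviation of the 8 genes from their own 6-library means, on the log2(cRPKM + 1) scale, was 0.020, 0.087 and 0.067 in mutant embryos 1, 2 and 3, against -0.088, -0.042 and -0.044 in wildtype embryos 1, 2 and 3. Over all tested genes the same measure lay between -0.014 and 0.020. Mutant embryo 2 was the highest of the 6 libraries for 5 of the 8 genes (Jun, Ier2, Atf3, Dusp1 and Zfp36) and mutant embryo 3 for 2 (Egr1 and Junb). Wildtype embryo 1 was the lowest for 3 (Egr1, Jun and Zfp36). Mutant embryo 1 was neither highest nor lowest for any of the 8.

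**Figure D3:**
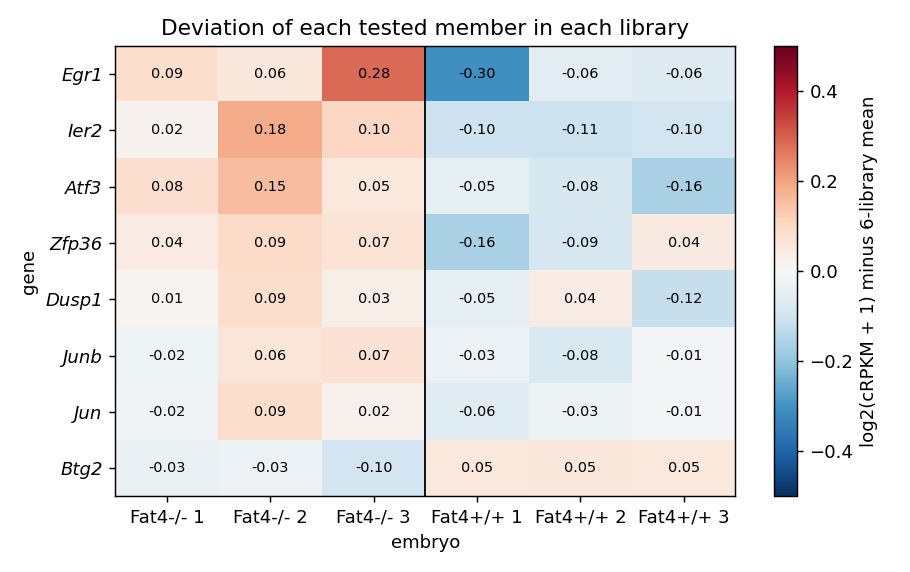
Deviation of each of the 8 tested genes (rows) from its mean over the 6 libraries, on the log2(cRPKM + 1) scale, in each embryo (columns), with red above and blue below the mean. Mutant embryos 2 and 3 are above the mean for 7 of 8 genes each and mutant embryo 1 for 5, against 1, 2 and 2 genes in wildtype embryos 1, 2 and 3; Btg2 has the opposite pattern.

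Mutant embryos 2 and 3, in which most of these genes were highest, were also those without Y-linked expression. Among the 4 libraries with Y-linked expression, mutant embryo 1 lay above all 3 wildtype embryos for Egr1, Ier2 and Atf3 and below them for Btg2, a position already fixed by naming genes whose groups do not overlap. For the other 6 genes it lay within the wildtype range. With the level of the Y-linked genes as a covariate the log2 fold change was 0.23 for Egr1, 0.12 for Ier2, 0.18 for Atf3 and -0.088 for Btg2, all with an adjusted p of at least 0.973 in limma, where over 16 alternatives the adjusted p ran from 0.0764 to 1.00 for Egr1 and from 0.0693 to 0.973 for Ier2. That fit compares the genotypes largely through mutant embryo 1, the 1 mutant embryo with Y-linked expression, against the wildtype embryos. It therefore has little power, and the loss of a call in it says little about a single gene. The part of sex in these differences was not tested beyond that fit. With each of the 6 libraries left out in turn, none of the 8 genes was called (lowest adjusted p 0.0831, for Ier2).

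The summed levels of some cell type markers differed between genotypes as well. The summed level of the 7 nephron progenitor markers was 305 to 346 cRPKM in mutant and 250 to 271 cRPKM in wildtype libraries. That of the 6 stromal markers was 296 to 303 cRPKM in mutant and 326 to 346 cRPKM in wildtype libraries, and that of the 8 endothelial markers 156 to 165 cRPKM in mutant and 166 to 175 cRPKM in wildtype libraries. The groups did not overlap for these 3 sums. A log2 fold change above 0 was seen for 7 of 7 nephron progenitor, 2 of 6 stromal and 1 of 8 endothelial markers. Over all tested genes the share was 43.2%. Macrophage markers overlapped, at 33.5 to 36.5 cRPKM in mutant and 31.2 to 41.4 cRPKM in wildtype libraries, and so did ureteric markers (159 to 160 cRPKM in mutant and 149 to 181 cRPKM in wildtype libraries) and erythroid markers (1973 to 3162 cRPKM in mutant and 1638 to 3042 cRPKM in wildtype libraries). No marker of these lists was at 0 in all libraries. Their part in the levels of the immediate early genes was not tested.

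The spread of these genes between littermates of 1 genotype ranged from among the smallest to among the largest of all genes. The SD of log2(cRPKM + 1) within genotypes had a median of 0.058 over the 8 genes, 0.065 over all tested genes and 0.065 over the 8471 tested genes that lie between Atf3 and Ier2 in level. Egr1 was the most variable, with an SD of 0.13, above that of 90.8% of the tested genes. Btg2 was the least variable, with an SD of 0.026, above that of 5.07%. Within the wildtype group Ier2 had a coefficient of variation of 0.368% and Btg2 of 0.159%, against 10.4% for Egr1. Zfp36 spread more in wildtype than in mutant embryos (coefficients of variation of 2.12% in mutant and 8.59% in wildtype) and Ier2 more in mutant embryos (5.95% in mutant and 0.368% in wildtype), differences that were not tested.

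Genes of the same circuits were followed through lists that were also chosen with earlier results of these data known. The counts in each list below stand against these shares of all tested genes: 1.43% were called in limma. At an unadjusted p under 0.05 in limma, 5.08% were higher and 7.97% lower. Groups did not overlap for 7.23% higher and 11.0% lower, and 43.2% had a log2 fold change above 0. Among relatives of the AP-1 genes, 0 of 10 tested were called in limma, with 1 higher and 0 lower at an unadjusted p under 0.05, and the median log2 fold change was 0.029. Jund, the Jun gene that cells express constantly, had 34.79, 40.31 and 38.41 cRPKM in the mutant embryos, against 31.80, 35.36 and 34.84 cRPKM in the wildtype embryos, above Jun in each library (log2 fold change 0.15, adjusted p = 0.365). Fosl2 had 9.41, 8.72 and 9.16 cRPKM in the mutant embryos, against 9.30, 10.07 and 11.62 cRPKM in the wildtype embryos, and so exceeded Fos in every library (log2 fold change -0.16, adjusted p = 0.402). Mafk, a small Maf factor, averaged 3.36 ± 0.315 cRPKM in mutant and 2.99 ± 0.0964 cRPKM in wildtype kidneys (SD, n = 3 each, log2 fold change 0.13, adjusted p = 0.465).

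Of 35 tested genes in the wider list of immediate early genes, 0 were called in limma, with 7 higher and 1 lower at an unadjusted p under 0.05, and 20 had a log2 fold change above 0 (median 0.030). Phlda1 had the lowest p, with 27.26, 32.79 and 30.58 cRPKM in the mutant embryos, against 21.61, 25.54 and 25.39 cRPKM in the wildtype embryos (log2 fold change 0.31, SE 0.0815, adjusted p = 0.128). Trib1, a pseudokinase gene, averaged 15.2 ± 0.492 cRPKM in mutant and 13.2 ± 0.938 cRPKM in wildtype kidneys (SD, n = 3 each, adjusted p = 0.159). Myc, the growth regulator, had 43.10, 47.64 and 45.87 cRPKM in the mutant embryos, against 34.79, 38.53 and 42.13 cRPKM in the wildtype embryos (log2 fold change 0.24, adjusted p = 0.172). The groups of these 3 genes did not overlap. Of the 35, 5 were separated with mutants higher and 4 with mutants lower, against 7.23% and 11.0% of all tested genes.

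Upstream of the immediate early genes, 1 of 23 tested kinases and factors rose and none fell in limma, with 2 higher and 0 lower at an unadjusted p under 0.05 (median 0.0078). The gene that rose was Rps6ka2, for a kinase of the Rsk family that Erk activates. It had 30.29, 30.91 and 32.21 cRPKM in the mutant embryos, against 23.97, 25.21 and 25.72 cRPKM in the wildtype embryos (log2 fold change 0.31, SE 0.0433, adjusted p = 0.0196). Its call ended without any 1 library except wildtype embryo 3 (adjusted p up to 0.0796) and without the minimum level (unchanged fold, adjusted p = 0.0579). The call of Rps6ka2 also ended with the Y-linked covariate (log2 fold change 0.27), a fit that rests largely on mutant embryo 1 for the mutant side. Srf, serum response factor itself, averaged 26.7 ± 1.32 cRPKM in mutant and 23.7 ± 1.07 cRPKM in wildtype kidneys (SD, n = 3 each) with groups that did not overlap (log2 fold change 0.16, adjusted p = 0.200). Map2k1, for the kinase above Erk, had a log2 fold change of 0.099 (adjusted p = 0.429).

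The Dusp list held the gene with the largest fold change of these lists. Of 9 tested Dusp phosphatases besides Dusp1, 1 rose and none fell in limma, with 5 higher and 0 lower at an unadjusted p under 0.05 (median 0.17). Dusp5, a nuclear phosphatase of Erk, rose to 8.43, 8.99 and 9.11 cRPKM in the mutant embryos, against 5.46, 6.79 and 6.42 cRPKM in the wildtype embryos (log2 fold change 0.45, SE 0.0719, adjusted p = 0.0267). Its call ended without any 1 mutant embryo (adjusted p up to 0.111), with the Y-linked covariate (log2 fold change 0.39, adjusted p = 0.519) and without the minimum level (unchanged fold, adjusted p = 0.0941). Dusp6, the cytoplasmic phosphatase of Erk, had 51.37, 52.23 and 52.84 cRPKM in the mutant embryos, against 41.43, 47.74 and 44.60 cRPKM in the wildtype embryos (log2 fold change 0.22, adjusted p = 0.0917). Dusp9 averaged 32.4 ± 1.56 cRPKM in mutant and 28.6 ± 0.951 cRPKM in wildtype kidneys (SD, n = 3 each, adjusted p = 0.140). The log2 fold change of Dusp1 was 0.083, and its difference from those of Dusp5, Dusp6 and Dusp9 was not tested.

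Among 9 tested relatives of Zfp36 and Btg2, with their deadenylase subunits, 1 rose and none fell in limma, with 1 higher and 0 lower at an unadjusted p under 0.05 (median 0.067). Tob1, an antiproliferative gene of the Btg and Tob family, rose to 19.79, 20.39 and 18.78 cRPKM in the mutant embryos, against 15.21, 16.57 and 15.46 cRPKM in the wildtype embryos (log2 fold change 0.30, SE 0.0486, adjusted p = 0.0268), the opposite sign to its relative Btg2. The call was lost without any 1 library except wildtype embryo 2 (adjusted p up to 0.104) and without the minimum level (unchanged fold, adjusted p = 0.0795). It was also lost with the Y-linked covariate (log2 fold change 0.31), a fit that rests largely on mutant embryo 1 for the mutant side. Zfp36l1, the relative of Zfp36, averaged 97.1 ± 3.43 cRPKM in mutant and 91.7 ± 5.92 cRPKM in wildtype kidneys (SD, n = 3 each, adjusted p = 0.602), and so stood far above Zfp36 in level. Tob2 had a log2 fold change of 0.10 (adjusted p = 0.605).

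Of 9 feedback genes that Erk signalling induces, 1 rose and none fell in limma, with 3 higher and 0 lower at an unadjusted p under 0.05, and all 9 had a log2 fold change above 0 (median 0.090). The one that rose was Spry2, an inhibitor of receptor tyrosine kinase signalling, at 21.75, 24.50 and 22.57 cRPKM in the mutant embryos, against 18.56, 18.83 and 17.98 cRPKM in the wildtype embryos (log2 fold change 0.30, adjusted p = 0.0324). Etv4, a transcription factor gene of the ureteric tip and the mesenchyme, had a log2 fold change of 0.26 (adjusted p = 0.129) and Spry4 of 0.19 (adjusted p = 0.362). The call of Spry2 ended whichever 1 of the 6 libraries was left out (adjusted p 0.0656 to 0.101) and without the minimum level (unchanged fold, adjusted p = 0.0833). It also ended with the Y-linked covariate (log2 fold change 0.23), a fit that rests largely on mutant embryo 1 for the mutant side.

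**Figure D4:**
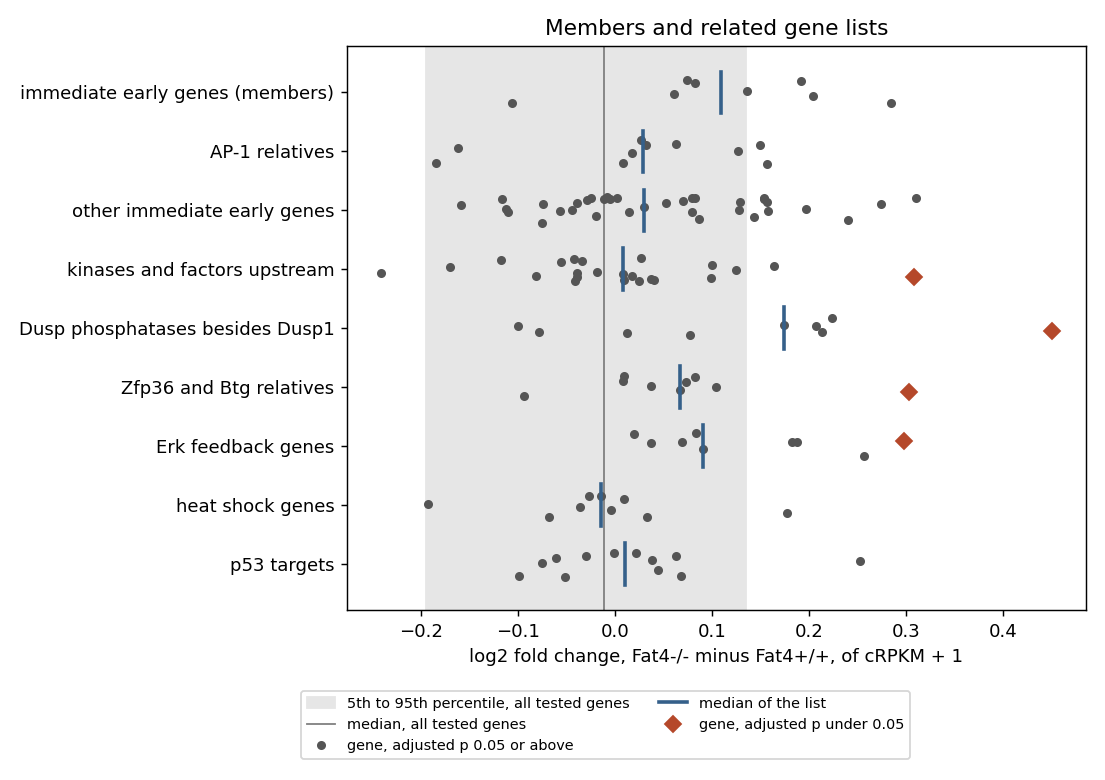
Log2 fold change of cRPKM + 1, Fat4-/- minus Fat4+/+ (horizontal axis), of each tested gene (points) in the immediate early genes and 8 related lists (rows), with the median of each list as a blue line and the 5th to 95th percentile of all tested genes, -0.19 to 0.14, in grey. The called genes, drawn as diamonds, are Rps6ka2, Dusp5, Tob1 and Spry2, and none of them is among the 8 tested members.

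Heat shock genes, like immediate early genes, can respond to handling of tissue, and the part of handling here was not tested. Of 9 tested, 0 were called in limma and 0 had an unadjusted p under 0.05, 3 had a log2 fold change above 0, and the median was -0.015. Their summed level was 2564 to 2639 cRPKM in mutant and 2545 to 2695 cRPKM in wildtype libraries, so that the groups overlapped. Hspa1b, the inducible chaperone, had 3.87, 4.69 and 5.68 cRPKM in the mutant embryos, against 3.89, 4.06 and 4.17 cRPKM in the wildtype embryos (log2 fold change 0.18, adjusted p = 0.530), with mutant embryo 3 the highest. Hspb1 and Hsph1 had log2 fold changes of -0.19 and -0.068 (adjusted p = 0.509 and 0.631).

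Btg2 and Atf3 are also targets of p53, and of 12 tested p53 targets 0 were called in limma, with 1 higher and 0 lower at an unadjusted p under 0.05 and a median log2 fold change of 0.010. The one was Phlda3, with 30.36, 35.70 and 31.49 cRPKM in the mutant embryos, against 27.56, 27.52 and 26.18 cRPKM in the wildtype embryos (log2 fold change 0.25, adjusted p = 0.0966). Ccng1, a cyclin gene, averaged 14.1 ± 0.501 cRPKM in mutant and 15.2 ± 0.527 cRPKM in wildtype kidneys (SD, n = 3 each, adjusted p = 0.404), below every wildtype embryo as Btg2 was. Sesn1 had a log2 fold change of -0.061 (adjusted p = 0.658).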

How the data were processed

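The authors deposited the RPKM of each gene in each library in 1 table, under the name cRPKM; the correction behind that name is not described in the labels or the table. Reads were trimmed, per the file headers, and Bowtie and mm9 are named in the submitters' processing notes. Each column was matched to its embryo by the header text in the labels. Of 22667 genes, 1114 hold no value.

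On the log2(cRPKM + 1) scale, genotypes were compared 2-sided in limma 3.58.1 (R 4.3.3; eBayes with a trend, no other term). The test covered 12315 genes, those averaging 1 cRPKM or more. Benjamini-Hochberg adjustment was over all of these, and a gene was called under 0.05. The script was tested on simulated data. Read totals are unknown. Steps between low values, searched only between 0.85 and 1.15, gave relative depths of 0.906 to 1.04 against wildtype embryo 1 for the other 5 (17 of 35 to 23 of 34 ratios explained within 1.5%), so no counting interval is given. Values of genes with near-identical or overlapping copies are uncertain. The names Atf7 and Tob2 stand for 2 identifiers each, of which the first in the table was used.

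The members and lists were chosen with earlier results of these data known. Named genes are all members and, in each list, up to 3 with the smallest unadjusted p. Alternatives were other pseudocounts (0.1 and 0.5), other minimum levels (none and 5 cRPKM), quantile normalisation, median scaling, no trend, library weights, the embryo number as a block, the Y-linked level as a covariate, and leaving out each library. Promoters are from RefSeq, matched by symbol for 8 of 10 genes.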

Additional observations from a re-analysis of the deposited data

How the results depend on the processing

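For the 8 tested immediate early genes, all 126 values under the 16 alternatives kept their direction and stayed above an adjusted p of 0.05 in limma, the lowest being 0.0693 (Ier2, with libraries scaled to the same median ratio); Atf3 and Junb could not be tested at a minimum of 5 cRPKM. The count called was 0 in each direction throughout. The median log2 fold change of the members moved to 0.15 with quantile normalisation, to 0.0785 with the Y-linked covariate and to 0.079 with no minimum level, when Fos and Fosb were included, and lay between 0.085 and 0.13 with 1 library left out. Among all genes, 176 were called, 68 higher and 108 lower. There were 32 calls (10 higher, 22 lower) with no minimum level, 109 (61 lower) at 5 cRPKM and 2 (1 higher, 1 lower) with the Y-linked covariate. With 1 library left out there were 24 to 132 calls, 7 to 53 of them higher and 17 to 87 lower.

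With the embryo number as a replicate block there were 273 calls, 109 higher and 164 lower, and no member was called (adjusted p of Ier2 0.0732, of Egr1 0.0764). Deviations from the genotype mean of embryos with the same number correlated across genes at 0.0985, 0.205 and 0.277 for numbers 1, 2 and 3. Pairs with different numbers ran from -0.373 to 0.227, the highest being mutant embryo 2 with wildtype embryo 1. Embryos with the same number also had neighbouring library numbers in the headers (1 and 2, 5 and 6, 7 and 8). The labels do not say that equal numbers belong together, so the main fit had no block, and whether the embryos are paired remains unknown. In the related lists the block added calls for Phlda1 (adjusted p = 0.0175) and Etv4 (0.0348), both higher in mutants with the same folds as without it. The values of Fosb, 0.040 to 0.070 cRPKM, are given to 2 decimals, which limits their precision; what depth limits could not be computed without read totals.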

Other observations

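The genes whose levels followed those of the immediate early genes most closely over the 6 libraries were named by their Pearson correlation with the mean z-score of the 8 tested members. They were Slc25a33, a mitochondrial carrier gene (r = 0.994), Plat, for tissue plasminogen activator (0.991), Rab35, for a small GTPase of endosomal recycling (0.989), the cell cycle transcription factor gene E2f1 (0.988) and the kinase anchor gene Akap2 (0.988). Slc25a33 had 6.94, 7.57 and 7.15 cRPKM in mutant embryos 1, 2 and 3, against 6.21, 6.52 and 6.45 cRPKM in wildtype embryos 1, 2 and 3. Plat had 46.40, 49.11 and 47.60 cRPKM in the mutant embryos, against 43.43, 43.97 and 44.43 cRPKM in the wildtype embryos. None of the 5 was called between genotypes (lowest adjusted p 0.208 in limma, for Slc25a33). These 5 were not alone, since 121 of the other 12307 tested genes had r above 0.95. The correlations rest on 6 libraries that share the genotype split. Among the members themselves r with this mean, which includes each of them, ran from 0.72 (Dusp1) to 0.98 (Ier2), with Btg2 at -0.79.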
